A study of Mus musculus with 24 samples.

Results

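A set of 10 genes tied to the hepatic stellate cell were followed in mouse liver: Tgfb1, Tgfb2, Pdgfra, Pdgfrb, Acta2, Des, Lox, Cygb, Lrat and Reln. They were taken by symbol from a table of 18314 long RNA entries, where all 10 were found, and all 10 passed the filter on low counts. The study sequenced liver RNA of male C57BL/6 mice of wild-type genotype. Control mice ate a normal diet, HFD mice a high-fat diet, and HFD plus HQHF mice the high-fat diet together with HQHF, the Huatanqushihuoxue Formula (a herbal preparation), which mice received by gavage once they had eaten the diet for 12 weeks. Groups were of 9 mice, of which 4 each were sequenced. The labels give neither the age of the mice nor the dose of HQHF behind these libraries, although the design had several doses. Each mouse has a batch code of its own, so no batch could be compared with another.

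Of the 12 long RNA libraries, 10 entered the comparisons: control 1, 3 and 4, HFD 1 to 4, and HFD plus HQHF 1, 2 and 4. They held 36198931 to 46454404 counts each. Alb, the albumin gene of hepatocytes, took 3.51% to 9.22% of their counts. In control 2 it took 0.00464% and in HFD plus HQHF 3 it took 7.43e-05%. Adipoq, the adiponectin gene of fat cells, took 0.454% and 0.125% of these libraries and at most 0.00412% of the other 10. Control 2 and HFD plus HQHF 3 are labelled liver but held almost none of its defining marker, and they were left out. With all 12 libraries no member passed the test in any of the 3 comparisons. Of the 10 libraries kept, control 1 also held pancreatic acinar RNA (0.141% of counts, at most 0.00196% elsewhere), and HFD 3 held adipocyte RNA (0.0231%, at most 0.00118% elsewhere).

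Hepatic stellate cells lie between the sinusoid and the hepatocytes and store vitamin A as retinyl esters, which the enzyme encoded by Lrat makes. On injury they can become contractile, matrix-making cells, a change called activation. TGF-beta, of which Tgfb1 and Tgfb2 encode isoforms, drives matrix production, and PDGF, acting through the receptors Pdgfra and Pdgfrb, drives proliferation and migration. Activated cells make smooth muscle actin, encoded by Acta2, and the lysyl oxidase encoded by Lox, which crosslinks collagen. Des (desmin, an intermediate filament), Cygb (cytoglobin, a globin of stellate cells) and Reln (reelin, a secreted glycoprotein) mark the lineage. The liver libraries are of whole tissue, so more cells of a type and more RNA per cell cannot be told apart.

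Levels are given in CPM, which scales the counts of each library to a common total, after scaling by TMM (trimmed mean of M values), and differences as log2 fold changes ± SE from edgeR's quasi-likelihood test. A gene was called at an adjusted p (Benjamini-Hochberg over all 13832 genes tested) under 0.05. The high-fat diet went with higher levels of 7 of the 10 genes, and with HQHF 7 of the 10 were lower than on the diet alone. In HFD against control the genes that rose were Lox, Cygb, Tgfb2, Pdgfra, Pdgfrb, Des and Lrat, and none fell. Over all genes tested, 16.3% were called higher and 9.89% lower in that comparison. The median log2 fold change of the 10 genes was 1.90, against 0.06 over all genes. In HFD plus HQHF against HFD, Lox, Acta2, Tgfb2, Pdgfrb, Cygb, Des and Tgfb1 fell, and none rose, where 11.1% of all genes were called lower and 7.85% higher. The median of the 10 genes was -1.49, against -0.07 over all genes. These 2 comparisons share the HFD libraries, so one is no independent check of the other.

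The HFD libraries lay wholly above the controls for 7 members, and the HFD plus HQHF libraries wholly below HFD for 8, where 36.7% and 30.7% of all genes had groups that did not overlap. Leaving out single libraries changed the counts. In HFD against control 4 members were called without control 1 and 4 without control 3, and 5 to 8 without any one of the other libraries. With HQHF against the diet alone 1 was called without HFD plus HQHF 1, 1 without HFD plus HQHF 2, 2 without HFD plus HQHF 4, 3 without HFD 1, 3 without HFD 4 and 4 without control 3. Without both control 1 and HFD 3, the libraries with RNA of other tissues, 7 and 8 members were called. When libraries were scaled by their totals instead of TMM, the median of all genes moved to 0.66 and -0.62 in the 2 comparisons. All 10 members kept their direction there and 9 were called in each, while over all genes 7041 were called higher and 154 lower in HFD, against 2257 and 1368 with TMM. With HQHF 137 were called higher and 6496 lower, against 1086 and 1532.

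**Figure D1:**
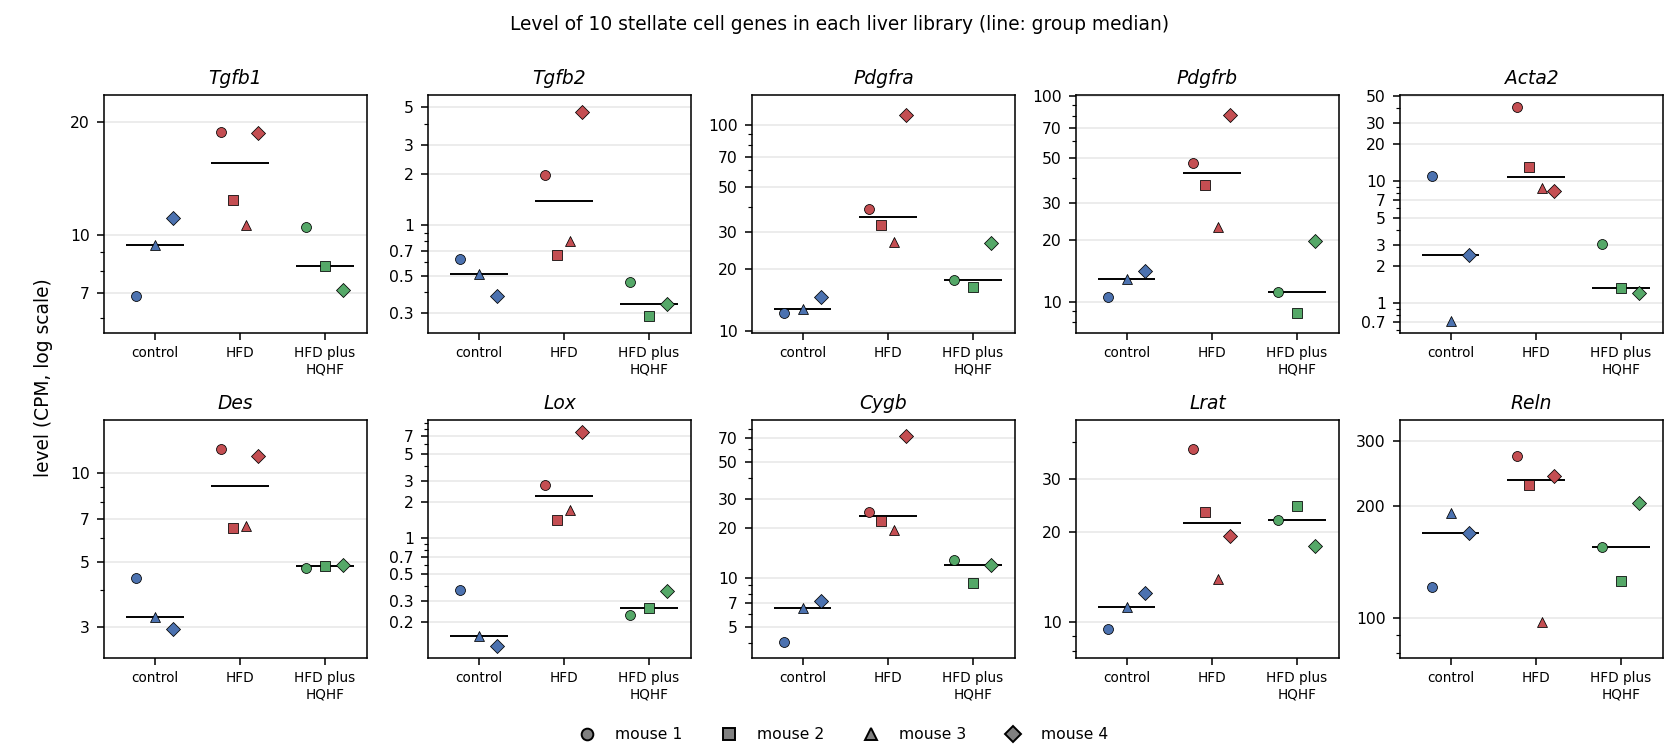
Level in CPM (log axis) of each gene in each of the 10 libraries, in 1 panel per gene; marker shapes give the mouse number within its group and the line is the group median. Lox lay between 1.42 and 7.62 CPM in HFD and at or below 0.37 CPM in all other libraries, while Lrat was at 18.0 to 24.4 CPM in HFD plus HQHF, within the range of HFD.

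**Figure D2:**
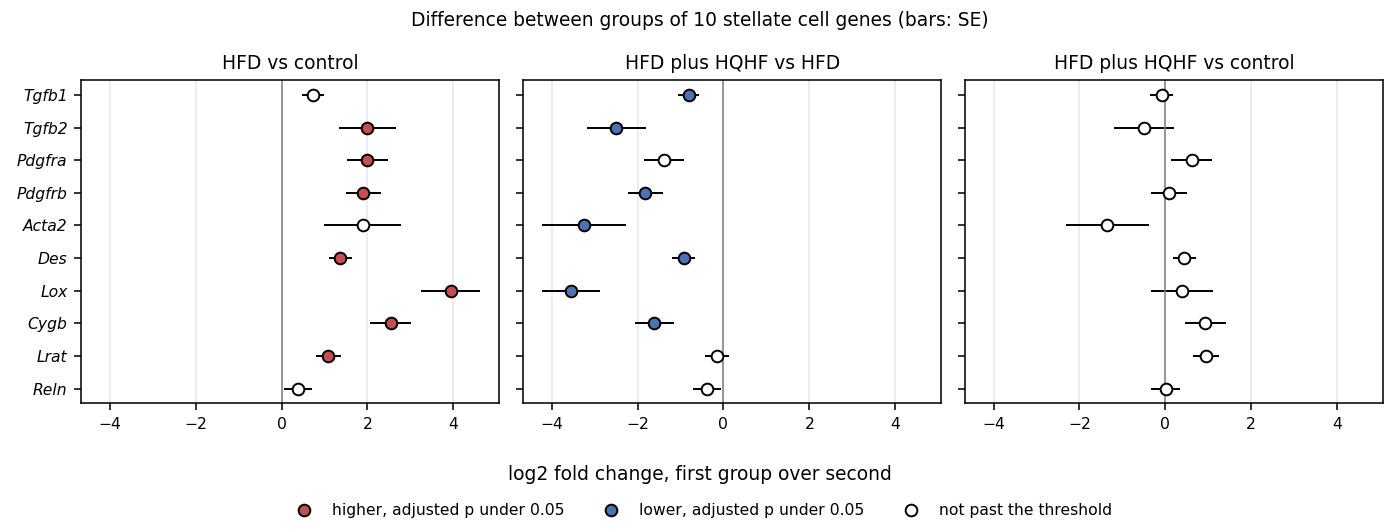
Log2 fold change of each gene in the 3 comparisons, with bars for the SE; red points were called higher, blue points lower, and white points missed the threshold. Red points fill 7 rows of HFD against control, blue points 7 rows of HFD plus HQHF against HFD, and no point is coloured in HFD plus HQHF against control.

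Of the TGF-beta ligands, Tgfb2 rose with the diet and both were lower with HQHF. Tgfb1 (ENSMUSG00000002603) was at 6.85, 9.41 and 11.1 CPM in control 1, 3 and 4, at 18.8, 12.4, 10.6 and 18.6 CPM in HFD 1 to 4, and at 10.5, 8.24 and 7.11 CPM in HFD plus HQHF 1, 2 and 4. HFD 3 lay below the highest control, so the control and HFD groups overlapped, and the log2 fold change of 0.73 ± 0.25 missed the threshold (adjusted p = 0.0535). HFD plus HQHF lay wholly below HFD, and Tgfb1 fell there by 0.81 ± 0.25 on the log2 scale (adjusted p = 0.0459). This call held in 3 of the 10 fits that left out 1 library. Tgfb2 (ENSMUSG00000039239) was at 0.63, 0.51 and 0.38 CPM in control, at 1.99, 0.66, 0.80 and 4.71 CPM in HFD, and at 0.46, 0.29 and 0.34 CPM in HFD plus HQHF. HFD 4 was the highest library and HFD 2 lay just above the highest control. Tgfb2 rose by 1.998 ± 0.66 in HFD (adjusted p = 0.0448) and fell by 2.49 ± 0.68 with HQHF (adjusted p = 0.0302). The rise held in 2 of 10 fits without 1 library and was 1.18 without HFD 4 (adjusted p = 0.113). The fall held in 5 of 10, and was -1.67 without HFD 4 (adjusted p = 0.0527).

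Of 11 genes around latent TGF-beta (its binding proteins and anchors, its activators and the ligand Tgfb3), 7 rose with the diet and 5 fell with HQHF. Over all genes 16.3% rose and 11.1% fell in the same comparisons. With library totals 11 rose and 11 fell, where 7041 of 13832 genes were called higher in HFD and 6496 lower with HQHF. The same background applies to the gene lists below. Ltbp3, a latent TGF-beta binding protein, averaged 1.32 ± 0.561 CPM in control (SD, n = 3), 10.8 ± 4.97 CPM in HFD (SD, n = 4) and 1.57 ± 0.389 CPM with HQHF (SD, n = 3). Its log2 fold changes were 3.04 ± 0.45 (adjusted p = 0.00323) and -2.77 ± 0.44 (adjusted p = 0.00533). Thbs1, the thrombospondin that activates latent TGF-beta, rose by 2.91 ± 0.46 (adjusted p = 0.00383) and fell by 2.70 ± 0.46 (adjusted p = 0.00671). Ltbp2 rose by 3.81 ± 0.85 (adjusted p = 0.0131). Tgfb3, the remaining TGF-beta isoform, fell by 2.34 ± 0.55 with HQHF (adjusted p = 0.0184). The rise was called for 4, 2 and 3 genes without control 1, 3 and 4, and the fall for 2, 2 and 3 without HFD plus HQHF 1, 2 and 4 and for 8 without HFD 3.

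Of 15 genes of TGF-beta receptors and SMADs, 6 rose and 1 fell in HFD, and 4 fell and 1 rose with HQHF. With library totals the split was 14 higher and 0 lower in HFD and 0 higher and 14 lower with HQHF. Tgfbr2, the receptor that binds the ligand, averaged 33.0 ± 3.78 CPM in control, 54.3 ± 12.9 CPM in HFD and 34.9 ± 4.43 CPM with HQHF. It rose by 0.72 ± 0.18 (adjusted p = 0.0192) and fell by 0.64 ± 0.18 (adjusted p = 0.0368). Tgfbr3, the coreceptor betaglycan, rose by 0.91 ± 0.20 (adjusted p = 0.0111) and Acvrl1, a receptor of endothelial cells, by 0.96 ± 0.24 (adjusted p = 0.0165). Tgfbr1, the signalling partner of Tgfbr2, fell by 0.77 ± 0.16 with HQHF (adjusted p = 0.0133), as did Ski, a repressor of SMAD signalling, by 0.71 ± 0.20 (adjusted p = 0.0362). Smurf2, a ubiquitin ligase of the pathway, was higher with HQHF by 0.54 ± 0.14 (adjusted p = 0.0287). These counts were small and moved with single libraries: 2, 2 and 3 genes rose without control 1, 3 and 4, and 0, 1 and 2 fell without HFD plus HQHF 1, 2 and 4, 1 without control 3, 2 without HFD 1 and 1 without HFD 4.

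Of 9 known targets of TGF-beta, 6 rose in HFD and 7 fell with HQHF. Ltbp2 is counted both here and among the genes around latent TGF-beta. Col1a1, a chain of type I collagen, was at 2.76, 1.87 and 4.44 CPM in control, at 97.9, 35.6, 17.3 and 143.7 CPM in HFD, and at 1.87, 2.01 and 8.08 CPM in HFD plus HQHF. All HFD libraries lay above all others, with log2 fold changes of 4.61 ± 0.91 (adjusted p = 0.00978) and -4.20 ± 0.89 (adjusted p = 0.016). Col1a2, the other chain, rose by 3.44 ± 0.65 (adjusted p = 0.00807). Timp1, an inhibitor of matrix-degrading enzymes, was at 0.827 to 3.195 CPM in HFD, at 0.0263, 0 and 0 CPM in control, and at 0.0522 to 0.262 CPM in HFD plus HQHF, and was called in both (adjusted p = 0.0015 and 0.0065). Pmepa1, a feedback inhibitor of the pathway, rose by 1.99 ± 0.40 (adjusted p = 0.0082) and fell by 1.82 ± 0.40 (adjusted p = 0.0145). Ccn2, connective tissue growth factor, was at 48.1 CPM in HFD 4 but at 5.70 to 11.2 CPM in the other 3, and was not called (0.75 ± 0.80, adjusted p = 0.512, and -1.54 ± 0.82, adjusted p = 0.21). Without control 3, 4 targets rose and 5 fell, and without HFD plus HQHF 1, 2 and 4 the number that fell was 1, 1 and 4.

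Both PDGF receptors were higher in every HFD liver than in any control. Pdgfra (ENSMUSG00000029231) was at 12.2, 12.7 and 14.5 CPM in control, at 38.9, 32.4, 27.0 and 111 CPM in HFD, and at 17.5, 16.2 and 26.7 CPM in HFD plus HQHF. HFD 4 stood well above the other HFD libraries, and HFD plus HQHF lay between the other groups without overlapping either. Pdgfra rose by 1.99 ± 0.48 in HFD (adjusted p = 0.0164). It was lower with HQHF by a log2 fold change of -1.38 ± 0.46 that missed the threshold (adjusted p = 0.0615), and of -0.71 without HFD 4 (adjusted p = 0.0504). Pdgfrb (ENSMUSG00000024620) was at 10.6, 12.9 and 14.1 CPM in control, at 47.2, 36.9, 23.1 and 80.3 CPM in HFD, and at 11.2, 8.84 and 19.8 CPM in HFD plus HQHF. Of the HQHF livers, HFD plus HQHF 1 lay among the controls, HFD plus HQHF 2 below them and HFD plus HQHF 4 between them and HFD 3. Pdgfrb rose by 1.90 ± 0.41 (adjusted p = 0.0115) and fell by 1.82 ± 0.41 (adjusted p = 0.0173). The rise was called in 9 of 10 fits without 1 library and lost without control 1 (1.79, adjusted p = 0.0524). The fall was called in 8 of 10, and lost without HFD plus HQHF 1 (-1.70, adjusted p = 0.0754) and HFD plus HQHF 2 (-1.59, adjusted p = 0.0724). The rise of Pdgfra was lost without control 1 (1.93, adjusted p = 0.0652) and control 3 (1.89, adjusted p = 0.0612).

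Of the 4 genes for the ligands of these receptors 3 rose in HFD and 3 fell with HQHF. Pdgfb, whose product binds Pdgfrb, was at 1.18, 1.26 and 0.92 CPM in control, at 4.75, 2.87, 5.04 and 6.72 CPM in HFD, and at 2.84, 1.77 and 2.07 CPM in HFD plus HQHF. The groups did not overlap, and Pdgfb rose by 2.11 ± 0.32 (adjusted p = 0.00328) and fell by 1.12 ± 0.30 (adjusted p = 0.0298). Its HQHF level stood above all controls, though the difference from control of 0.99 ± 0.33 was not called (adjusted p = 0.621). Pdgfa rose by 1.44 ± 0.20 (adjusted p = 0.00261) and fell by 0.92 ± 0.20 (adjusted p = 0.0136). Pdgfd rose by 1.89 ± 0.49 (adjusted p = 0.0197), and Pdgfc fell by 1.20 ± 0.36 with HQHF (adjusted p = 0.0421). The number that fell was 0, 0 and 1 without HFD plus HQHF 1, 2 and 4 and 1 without HFD 4, while 2 to 4 rose with any 1 library left out.

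Of the genes of the contractile and intermediate filament cytoskeleton, Des rose with the diet, Acta2 was not called there, and both fell with HQHF. Acta2 (ENSMUSG00000035783) was at 11.0, 0.72 and 2.48 CPM in control, at 40.3, 13.0, 8.70 and 8.25 CPM in HFD, and at 3.04, 1.33 and 1.20 CPM in HFD plus HQHF. HFD 1 was far above the other HFD libraries, and control 1 lay above HFD 3 and HFD 4. The difference between HFD and control was 1.89 ± 0.90 and was not called (adjusted p = 0.149). It was 3.47 without control 1 (adjusted p = 0.0478) and 1.08 without HFD 1 (adjusted p = 0.366). With HQHF Acta2 fell by 3.24 ± 0.98 (adjusted p = 0.0472), and the groups did not overlap. That call held in 3 of 10 fits without 1 library. The actins are encoded by genes of near-identical coding sequence, so reads could have been split between Acta2, Actg2 and others. Des (ENSMUSG00000026208) was at 4.41, 3.25 and 2.95 CPM in control, at 12.1, 6.51, 6.63 and 11.4 CPM in HFD, and at 4.77, 4.85 and 4.86 CPM in HFD plus HQHF. The HQHF livers were closely alike and lay above all controls and below all HFD livers. Des rose by 1.37 ± 0.27 (adjusted p = 0.00713), called in 10 of 10 fits without 1 library. It fell by 0.93 ± 0.26 with HQHF (adjusted p = 0.0341), called in 4 of 10.

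Of 12 other contractile and cytoskeletal genes 7 rose in HFD and 7 fell with HQHF. Tpm1, a tropomyosin of actin filaments, averaged 18.7 ± 3.15 CPM in control, 45.3 ± 3.49 CPM in HFD and 18.5 ± 0.882 CPM with HQHF, with log2 fold changes of 1.28 ± 0.14 (adjusted p = 0.000932) and -1.30 ± 0.14 (adjusted p = 0.00178). Flna, filamin A, which crosslinks actin, rose by 1.70 ± 0.26 (adjusted p = 0.00323) and fell by 1.51 ± 0.25 (adjusted p = 0.00636). Cnn2, a calponin, rose by 1.43 ± 0.23 (adjusted p = 0.00386), and Vim, vimentin, fell by 1.72 ± 0.31 with HQHF (adjusted p = 0.00841). Tagln, transgelin, was at 7.56, 1.46 and 3.78 CPM in control, at 29.4, 9.80, 13.4 and 15.2 CPM in HFD, and at 5.28, 2.76 and 2.75 CPM in HFD plus HQHF. HFD 1 and control 1 were the highest of their groups, as for Acta2. Tagln rose by 1.99 ± 0.56 (adjusted p = 0.0285) and fell by 2.24 ± 0.56 (adjusted p = 0.0256). With any 1 library left out 6 to 8 of these genes rose in HFD, and 3 fell with HQHF without HFD plus HQHF 1.

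Lox showed the largest log2 fold change of the 10 genes in both comparisons. Lox (ENSMUSG00000024529) was at 0.37, 0.15 and 0.13 CPM in control, at 2.76, 1.42, 1.71 and 7.62 CPM in HFD, and at 0.23, 0.26 and 0.37 CPM in HFD plus HQHF. All 4 HFD livers were above the rest, and the HQHF livers lay within the range of the controls. These levels were 14, 6 and 4 reads in control and 8, 10 and 14 reads in HFD plus HQHF. The size of the fold changes therefore rests on few reads in those groups. Lox rose by 3.93 ± 0.70 (adjusted p = 0.00541) and fell by 3.55 ± 0.68 (adjusted p = 0.0094), and both calls held in 10 of 10 fits without 1 library. The related enzymes that crosslink collagen and elastin moved too: of 4 tested, 3 rose in HFD and 2 fell with HQHF. Loxl1 rose by 3.19 ± 0.51 (adjusted p = 0.00363) and fell by 2.67 ± 0.49 (adjusted p = 0.00841). Loxl2 rose by 1.88 ± 0.31 (adjusted p = 0.00432) and fell by 1.46 ± 0.31 (adjusted p = 0.0131), and Loxl3 rose by 1.16 ± 0.35 (adjusted p = 0.0326). Leaving out single libraries gave 2 to 3 that rose in HFD and 1 to 3 that fell with HQHF.

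Cygb (ENSMUSG00000020810) was at 4.10, 6.51 and 7.24 CPM in control, at 25.0, 22.0, 19.3 and 71.8 CPM in HFD, and at 12.7, 9.31 and 12.0 CPM in HFD plus HQHF. HFD 4 stood apart, while the other 3 HFD livers were alike, and the 3 groups did not overlap. Cygb rose by 2.54 ± 0.48 (adjusted p = 0.00724), called in 10 of 10 fits without 1 library. It fell by 1.61 ± 0.45 with HQHF (adjusted p = 0.0365), called in 6 of 10, and without HFD 4 the log2 fold change was -0.97 (adjusted p = 0.0218).

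Lrat, which makes the stored retinyl esters, rose with the diet and was not called with HQHF against the diet alone. Lrat (ENSMUSG00000028003) was at 9.53, 11.3 and 12.5 CPM in control, at 37.8, 23.3, 14.0 and 19.5 CPM in HFD, and at 21.9, 24.4 and 18.0 CPM in HFD plus HQHF. Every liver on the high-fat diet, with or without HQHF, lay above all controls. Lrat rose by 1.09 ± 0.29 in HFD (adjusted p = 0.0224), a call lost without control 1 (0.98, adjusted p = 0.0861), control 3 (1.03, adjusted p = 0.0795) and control 4 (1.18, adjusted p = 0.0521). With HQHF the log2 fold change against HFD was -0.14 ± 0.28 (adjusted p = 0.753), and it was called in 0 of the 19 other settings. Over those settings it ranged from -0.66 to 0.18, and the lowest adjusted p was 0.0502, just above the threshold. A p that misses the threshold does not show that the levels are the same. Against control, HFD plus HQHF was higher by 0.95 ± 0.30, with an unadjusted p of 0.0101 and an adjusted p of 0.621.

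Genes of retinoid handling went in both directions. Of 10 listed, 9 could be tested, and in HFD 2 rose and 2 fell, while with HQHF 2 rose and 1 fell. Rbp4, the plasma retinol carrier made by hepatocytes, fell by 1.15 ± 0.19 (adjusted p = 0.0042) and rose by 1.01 ± 0.19 with HQHF (adjusted p = 0.00916). Dgat1, an acyltransferase that can also esterify retinol, fell by 0.69 ± 0.14 (adjusted p = 0.00923). Aldh1a2, which makes retinoic acid, averaged 0.0629 ± 0.0593 CPM in control and 1.18 ± 1.44 CPM in HFD. It was called with a log2 fold change of 4.14 ± 1.14 although the groups overlapped (adjusted p = 0.0251). Its levels in HFD 1 to 4 were 0.57, 0.092, 3.29 and 0.76 CPM, and HFD 2 lay below control 1 (0.13 CPM). HFD 3, the highest, was the library that held adipocyte RNA, whose part in this difference was not tested. Aldh1a2 fell with HQHF by 4.17 ± 1.14 (adjusted p = 0.0314). Cyp26b1, which breaks retinoic acid down, averaged 8.70 ± 2.27 CPM in HFD and 26.1 ± 16.1 CPM with HQHF, a rise of 1.58 ± 0.43 (adjusted p = 0.0322). With library totals in place of TMM the median of the list was 0.34 in HFD against control and -0.16 with HQHF, against -0.24 and 0.40 with TMM, so the direction of its median depends on the scaling in both comparisons. Leaving out single libraries gave 0 to 2 genes of the list called higher and 2 to 3 lower in HFD.

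Reln (ENSMUSG00000042453) did not pass the test. It was at 120.8, 192 and 169.8 CPM in control, at 273.4, 228.6, 97.5 and 241.8 CPM in HFD, and at 155.5, 125.3 and 204.3 CPM in HFD plus HQHF. HFD 1, 2 and 4 were above all controls, but HFD 3 was the lowest of the 10 libraries. The log2 fold changes were 0.39 ± 0.32 in HFD (adjusted p = 0.399) and -0.38 ± 0.32 with HQHF (adjusted p = 0.429). Without HFD 3 they were 0.63 and -0.62, with no call. With library totals they were 0.96 (adjusted p = 0.0161) and -0.91 (adjusted p = 0.0222), where all genes had medians of 0.66 and -0.62. Of 3 genes of the reelin receptors and adaptor, Lrp8 rose in HFD from 0.062 ± 0.0573 to 0.464 ± 0.268 CPM (2.81 ± 0.70, adjusted p = 0.0169), a call lost without control 1 or control 4, and with library totals 2 of the 3 were called.

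Among 14 other genes of stellate lineage and quiescence, 4 rose and 1 fell in HFD, and 4 fell and 1 rose with HQHF. With library totals 9 rose and 0 fell in HFD, and 9 fell and 0 rose with HQHF. Steap4, a metalloreductase, averaged 42.1 ± 4.74 CPM in control, 127.6 ± 49.1 CPM in HFD and 47.0 ± 1.73 CPM with HQHF. It rose by 1.60 ± 0.26 (adjusted p = 0.00408) and fell by 1.44 ± 0.26 (adjusted p = 0.00816). Pparg, a nuclear receptor linked to the quiescent state and to fat storage in other cells, rose by 1.23 ± 0.28 (adjusted p = 0.0131). Hand2, a transcription factor of the lineage, rose by 1.29 ± 0.33 (adjusted p = 0.019) and fell by 1.26 ± 0.33 (adjusted p = 0.0264). Vipr1, a receptor for vasoactive intestinal peptide, went the other way. It was at 46.8 to 50.5 CPM in control, 31.9 to 39.1 CPM in HFD and 59.2 to 70.6 CPM in HFD plus HQHF. With HQHF Vipr1 rose by 0.86 ± 0.12 (adjusted p = 0.00381). Without control 1 and control 3, 1 and 2 rose in HFD, and 1, 2 and 1 fell with HQHF without HFD plus HQHF 1, 2 and 4, 2 without control 3 and 2 without HFD 4.

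Promoter stretches are shown for Des, which rose with the diet and fell with HQHF, and for Lrat, which rose and was not called with HQHF. They are the 120 bases before the start site of RefSeq's table (build GRCm38.p6), 5′ to 3′ on the gene's strand, at chr1:75360172-75360291 on the plus strand for Des and at chr3:82903975-82904094 on the minus strand for Lrat. Capitals mark GC boxes (GGGCGG on either strand), to which factors of the SP1 family bind.
Des: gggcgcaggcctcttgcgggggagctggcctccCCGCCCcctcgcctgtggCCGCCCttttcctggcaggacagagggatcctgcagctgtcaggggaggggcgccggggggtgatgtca
Lrat: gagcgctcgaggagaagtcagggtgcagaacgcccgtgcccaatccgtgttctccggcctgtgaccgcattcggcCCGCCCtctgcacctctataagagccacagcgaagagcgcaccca
Of the 10 genes, 7 matched an entry of the table, which gives 250 bases before and 50 after 1 start per gene. For Acta2, Pdgfra and Tgfb2 that start lies inside the gene's span, so the window may not be the one in use in liver. A GC box was in 4 of the 7 (Des, Lrat, Reln and Tgfb1), against 35.7% of all 32851 promoters. The SMAD element CAGACA was in 3 (Acta2, Des and Tgfb2), against 21% of all. The TEAD site GGAATG was in 2 (Acta2 and Lrat), against 14.7%. The palindrome GTCTAGAC (0.213% of all), the AP-1 site TGACTCA or TGAGTCA (5.2%) and the CArG box of serum response factor (1.63%) were in 0 of the 7. All were searched on both strands, no motif holds another, and a match or its absence describes the letters of these windows alone.

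In HFD plus HQHF against control 0 of the 10 genes were called, and 0% of all 13832 genes were called higher and 0% lower. At an unadjusted p under 0.05 there was 1 member, Lrat, and 1008 genes in all, and DESeq2 called 72 genes but 0 members. The median log2 fold change of the 10 was 0.23. Groups did not overlap for 4 members (Pdgfra, Des, Cygb and Lrat, all higher with HQHF), against 15.1% of all genes. Cygb was higher by 0.93 ± 0.48 (adjusted p = 0.707), Pdgfra by 0.62 ± 0.48 (adjusted p = 0.81) and Des by 0.45 ± 0.28 (adjusted p = 0.748). Acta2 was lower by a log2 fold change of -1.35 ± 0.96 (adjusted p = 0.788). Lox (0.39 ± 0.73) and Pdgfrb (0.08 ± 0.42) had errors larger than their differences.

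The 4 HFD livers fell into unlike orders for different genes. HFD 4 was the highest for Pdgfra, Pdgfrb, Cygb, Lox and Tgfb2 and the lowest for Acta2. HFD 1 was the highest for Acta2, Lrat, Des, Tgfb1 and Reln. HFD 3 was the lowest for 6 members and HFD 2 for 3. The highest HFD level was 7.12 times the lowest for Tgfb2, 5.38 times for Lox and 4.88 times for Acta2, but 1.77 times for Tgfb1 and 1.86 times for Des. The smooth muscle genes Myh11, Actg2 and Cnn1 were, like Acta2, highest in HFD 1, while Smtn, Notch3 and Kcnj8 of the same list were highest in HFD 4. Myh11, smooth muscle myosin, was at 40.0, 17.1, 6.66 and 8.68 CPM in HFD 1 to 4, and at 9.17 CPM in control 1 against 2.77 and 2.92 CPM in the other controls. Actg2, an actin of enteric smooth muscle, was at 10.3, 1.32, 0.65 and 0.33 CPM in HFD 1 to 4, and at 1.13 CPM in control 1 against 0.051 and 0.19 CPM in the other controls. Col1a1, Eln and Ltbp2 of the matrix were highest in HFD 4, with Eln, elastin, at 13.2, 8.62, 3.18 and 44.0 CPM in HFD 1 to 4, and Ltbp2 at 8.13, 3.51, 1.49 and 19.4 CPM.

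**Figure D3:**
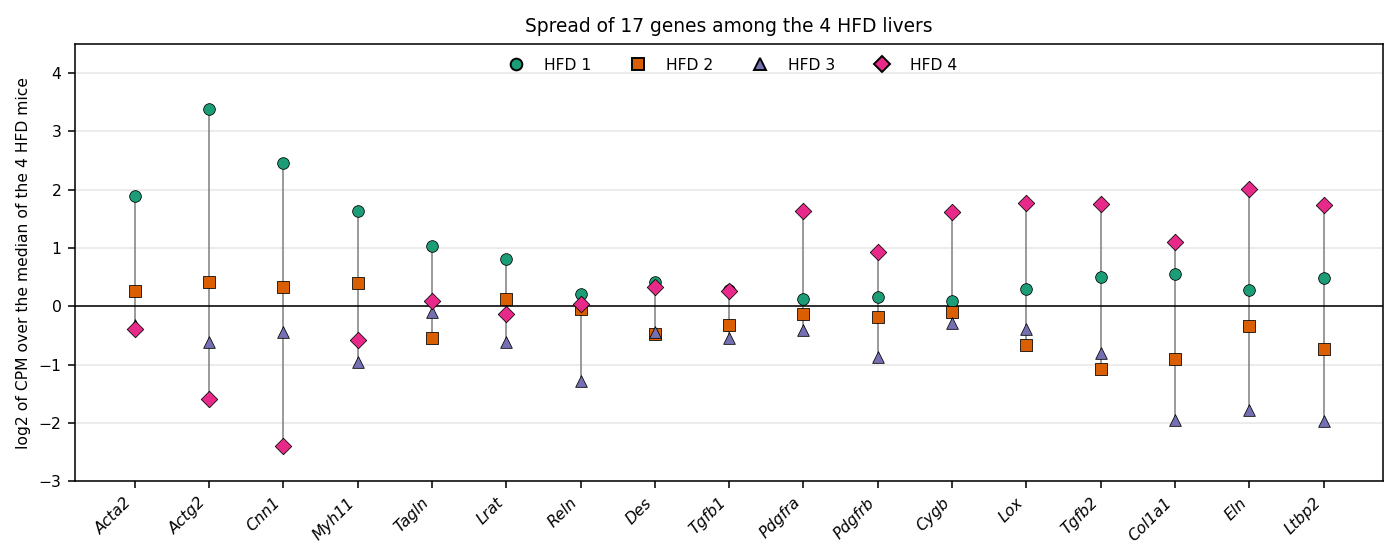
For each of 17 genes, the log2 of its CPM in each of the 4 HFD livers over the median of the 4; the grey line spans lowest to highest. HFD 1 is on top for Acta2, Actg2, Cnn1, Myh11 and Tagln on the left, and HFD 4 is on top for Pdgfra, Pdgfrb, Cygb, Lox, Tgfb2 and the matrix genes on the right.

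Markers of other cell types moved in the same comparisons. Of 8 smooth muscle markers 7 could be tested; 4 rose in HFD and 4 fell with HQHF, and with library totals 6 and 7. Together they took 0.00109% to 0.00157% of counts in control, 0.00384% to 0.00954% in HFD and 0.00114% to 0.00145% in HFD plus HQHF. Smtn, smoothelin, rose by 1.04 ± 0.30 (adjusted p = 0.0296) and fell by 1.24 ± 0.30 (adjusted p = 0.021), and Myh11 fell by 2.34 ± 0.69 with HQHF (adjusted p = 0.0438). All 9 portal fibroblast markers rose in HFD and 7 of 9 fell with HQHF. They took 0.000519% to 0.00136% of counts in control, 0.00407% to 0.0139% in HFD and 0.00103% to 0.00123% in HFD plus HQHF. Fbln2, a fibulin, rose by 2.47 ± 0.44 (adjusted p = 0.00551) and fell by 1.99 ± 0.43 (adjusted p = 0.0136), and Cd34, a surface glycoprotein also of vessels, rose by 2.59 ± 0.49 (adjusted p = 0.00673) and fell by 2.55 ± 0.49 (adjusted p = 0.00978). Without control 3, 4 fibroblast markers and 0 smooth muscle markers rose, and without HFD plus HQHF 1, 2 and 4, 1, 1 and 4 fibroblast markers and 0, 0 and 1 smooth muscle markers fell. Of the smooth muscle markers 1 rose without control 1, 1 without HFD 1 and 2 each without HFD 2, HFD 4 and HFD plus HQHF 1, and 1 fell without HFD 1 and 2 each without HFD 2, control 3 and control 4. Both cell types express several of the 10 genes, and their part in the differences was not tested.

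Of 9 macrophage markers 5 rose and 2 fell in HFD, and 5 fell and 2 rose with HQHF. With library totals 6 rose and 0 fell in HFD, and 5 fell and 1 rose with HQHF. The number that fell in HFD was 0 without control 1, 3 or 4 and 1 without HFD 2, 3 or 4 or HFD plus HQHF 2, and the number that rose with HQHF was 0 and 1 without HFD plus HQHF 1 and 2 and 3 without control 4. These markers took 0.0134% to 0.0187% of counts in control, 0.0259% to 0.044% in HFD and 0.0164% to 0.0243% with HQHF. Trem2, a receptor of lipid-handling macrophages, averaged 0.233 ± 0.088 CPM in control, 8.97 ± 3.39 CPM in HFD and 0.898 ± 0.316 CPM with HQHF. Gpnmb, a glycoprotein of macrophages and of activated mesenchymal cells, was at 131.1, 54.6, 93.5 and 176.7 CPM in HFD and at or below 0.994 CPM in all other libraries. Clec4f and Timd4 of the same list went the other way. Clec4f was at 103.9 to 127.7 CPM in control, 49.1 to 95.5 CPM in HFD and 125.8 to 192.5 CPM in HFD plus HQHF. Timd4 was at 6.15 to 9.59 CPM in control, 0.722 to 3.98 CPM in HFD and 5.67 to 8.84 CPM in HFD plus HQHF. Of 9 hepatocyte markers 6 fell in HFD and 5 rose with HQHF (1 and 3 without HFD plus HQHF 1 and 2), and with library totals 3 fell and 2 rose. They took 9.81% to 12.8% of counts in control, 6.01% to 9.95% in HFD and 7.49% to 10.1% in HFD plus HQHF. Of 5 cholangiocyte markers Krt19 was called in HFD with 4.07 ± 1.32 although the groups overlapped (adjusted p = 0.0487), and Krt7 fell by 4.11 ± 1.12 with HQHF (adjusted p = 0.0338). In HFD 0 were called without any 1 of the libraries other than HFD 2 and HFD 3, and 4 without HFD 3. With HQHF 0 were called without control 3, HFD 1, HFD 4 or any HFD plus HQHF library, and 4 without HFD 3, and with library totals 4 were called in each comparison. The list took up to 0.046% of counts in HFD 4 and 0.0114% in HFD 1, against at most 0.00238% in control. Most of the share in HFD 4 was Spp1 alone, with 17553 reads. There Sox9 had 1494 reads, Epcam 1342, Krt19 558 and Krt7 427, while Krt19 was highest in HFD 1 (1922 reads). Of 7 endothelial markers 1 rose in HFD, Vwf with 1.33 ± 0.39 (adjusted p = 0.0332), and 0 were called with HQHF. Of 5 lymphatic endothelial markers Pdpn, podoplanin, rose by 2.25 ± 0.68 (adjusted p = 0.0347) and fell by 3.30 ± 0.74 (adjusted p = 0.0159), and of 5 T cell markers Cd8a rose by 2.5996 ± 0.70 (adjusted p = 0.0232). These were calls that single libraries ended: Vwf without any control, HFD 2 or HFD plus HQHF 1, Cd8a without any control, and Pdpn without control 3, control 4 or HFD 4 in HFD and without HFD plus HQHF 2 or 4 with HQHF. With library totals 3 endothelial, 4 lymphatic and 3 T cell markers were called in each of these comparisons. Of the adipocyte, muscle and acinar markers, 2, 1 and 1 could be tested, and 1 was called, Cela1, lower in HFD with -4.56 ± 1.36 and overlapping groups (adjusted p = 0.0395), where control 1 held the acinar RNA. HFD plus HQHF against control gave 0 called genes in all 20 lists.

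The ratio of each gene to Lrat within the same library does not depend on how libraries are scaled. With HQHF against the diet alone the mean log2 ratio of Lox to Lrat was -6.18 ± 0.53 (SD, n = 3) against -3.05 ± 1.21 (SD, n = 4), a difference of -3.13 (two-sided exact permutation p = 0.0286, adjusted over the 9 ratios 0.0858). The ratio of Acta2 to Lrat differed by -2.97 and that of Pdgfrb by -1.70, each with the same exact p, which is the smallest that 3 against 4 libraries can give. No ratio passed the threshold after adjustment. The groups did not overlap for Tgfb1 (-0.73), Tgfb2 (-1.97) and Des (-0.81) either. In HFD against control the ratio of Lox to Lrat was higher by 2.68 (exact p = 0.0286, adjusted 0.128). The ratio of Cygb was higher by 1.35 and that of Pdgfrb by 0.77. That of Reln was lower, with a difference of -0.69 and no overlap (exact p = 0.0571, adjusted 0.128). Lrat itself was called higher in HFD (1.09 ± 0.29), and Reln was higher but not called (0.39 ± 0.32). The lower ratio therefore does not show a fall of Reln. For HFD plus HQHF against control, 3 libraries against 3 cannot go below 0.1, and all 9 adjusted p were at least 0.225.

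**Figure D4:**
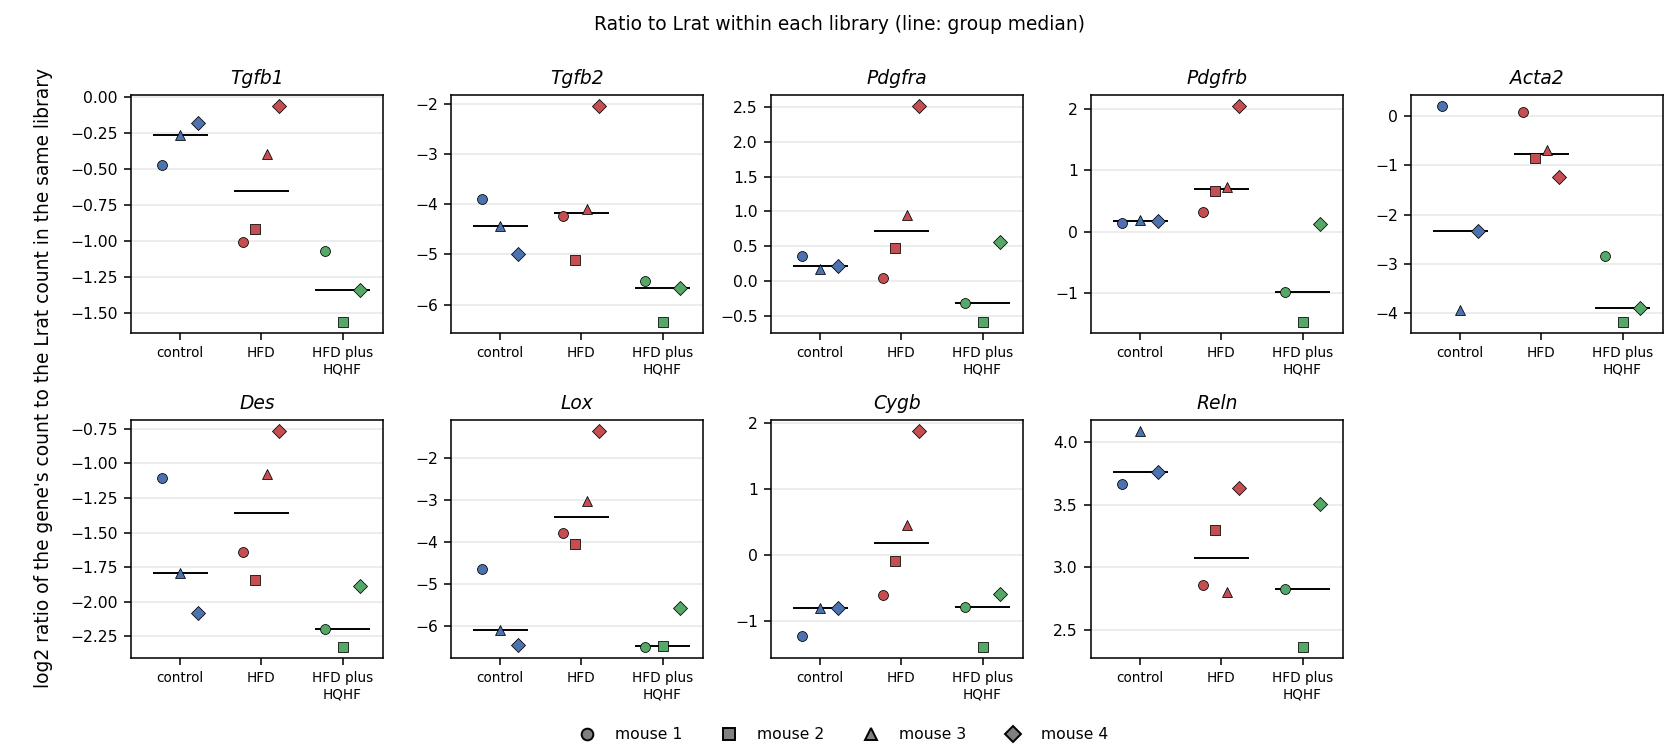
Log2 ratio of each gene's count to the Lrat count in the same library (0.5 counts added to each), with marker shapes for the mouse number and a line at the group median. For Lox, Acta2 and Pdgfrb all HFD plus HQHF livers lie below all HFD livers, while for Reln these groups overlap.

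For each member the genes with the most alike pattern over the 10 libraries were sought among genes of at least 1 CPM, by the mean absolute difference of centred log2 CPM, leaving out genes whose spread was under that of the member divided by 1.5. This is a description of 10 libraries that share the group differences. Acta2 was nearest to Actg2 (0.43), Vcan (0.49) and Tagln (0.56), so no gene followed it as closely as those nearest to the other members. Lox was nearest to Emp1 (0.19), Svep1 (0.27) and Crispld2 (0.27). Pdgfra was nearest to Robo2 (0.15), Art4 (0.17) and Frem1 (0.18), and Pdgfrb to Col4a2 (0.18), Unc5b (0.19) and Gdf10 (0.20). Cygb was nearest to Itga8 (0.24), Mfge8 (0.25) and Entpd2 (0.26), and Des to Alpk1 (0.12), Ddr2 (0.13) and Nckap1l (0.13). Lrat was nearest to Dok2 (0.14), Limd2 (0.16) and Ifi47 (0.17), Reln to Nfatc1 (0.14), Sned1 (0.16) and Kdm4b (0.16), Tgfb1 to Naip2 (0.13), Fhod1 (0.13) and Marcksl1 (0.13), and Tgfb2 to Elapor1 (0.21), Adamts9 (0.27) and Chmp4c (0.28).

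Small RNA libraries of the same 10 mice gave miRNAs that stellate and other mesenchymal cells are known for. The sequences of the called ones are shown with the seed (bases 2 to 8, which pairs with target mRNAs) in capitals, from RefSeq, 5′ to 3′.
mmu-miR-29a-3p: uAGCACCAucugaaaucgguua
mmu-miR-29b-3p: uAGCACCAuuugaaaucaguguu
mmu-miR-29c-3p: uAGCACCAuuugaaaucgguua
mmu-miR-199a-3p: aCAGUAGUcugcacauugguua
mmu-miR-214-3p: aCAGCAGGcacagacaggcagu
The 3 members of the miR-29 family, known to repress collagen mRNAs, share 1 seed. The miRNAs miR-199a and miR-214 are made from a shared mesenchymal transcript, and their seeds differ from each other and from that of miR-29.

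Of 11 listed miRNAs, 1 fell in HFD, where 8.62% of 406 miRNAs were called lower. With HQHF 3 rose and 2 fell against HFD, where 10.6% of all were called higher and 9.36% lower. The miRNA mmu-miR-29c-3p was at 13057, 15939 and 12338 CPM in control, at 8660, 10354, 10553 and 7631 CPM in HFD, and at 18698, 20243 and 18562 CPM in HFD plus HQHF. Its 3 groups did not overlap, and it fell by 0.57 ± 0.14 in HFD (adjusted p = 0.0314) and rose by 1.04 ± 0.14 with HQHF (adjusted p = 0.0043). The rise held in 10 of 10 fits without 1 library and the fall in 2 of 10. The miRNAs mmu-miR-29a-3p and mmu-miR-29b-3p, with the same seed, rose with HQHF by 0.52 ± 0.13 (adjusted p = 0.0222) and 0.54 ± 0.16 (adjusted p = 0.043), called in 5 and 3 of 10 fits without 1 library. With library totals in place of TMM the median of all miRNAs moved to 0.74 in HFD against control and -0.72 with HQHF. There mmu-miR-29c-3p was at 0.10 in HFD and 0.47 with HQHF (adjusted p = 0.0323), while mmu-miR-29a-3p and mmu-miR-29b-3p changed direction with HQHF, to -0.10 and -0.05, with no call.

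The miRNA mmu-miR-214-3p was at 7.56, 5.10 and 13.3 CPM in control, at 18.1, 12.7, 8.17 and 18.8 CPM in HFD, and at 1.52, 1.51 and 3.86 CPM in HFD plus HQHF. The HQHF livers were the lowest, and it fell by 2.64 ± 0.51 against HFD (adjusted p = 0.0155), a call lost without HFD plus HQHF 1 (-2.41, adjusted p = 0.0707) and HFD plus HQHF 2 (-2.41, adjusted p = 0.0736). Against control it was lower by a log2 fold change of -1.91 ± 0.52 that was not called (adjusted p = 0.0743). The miRNA mmu-miR-199a-3p, whose counts equal those of mmu-miR-199b-3p in every library, was at 2798, 1834 and 2585 CPM in control, at 4293, 3207, 3048 and 7343 CPM in HFD, and at 1848, 1698 and 1930 CPM in HFD plus HQHF. It fell with HQHF by 1.29 ± 0.31 (adjusted p = 0.0222), in 6 of 10 fits without 1 library. In HFD against control it was 0.89 ± 0.31 and not called (adjusted p = 0.0739). The other 6 miRNAs were not called in either comparison with HFD, among them mmu-miR-21a-5p, known for its rise in fibrosis (-0.96 ± 0.31 in HFD, adjusted p = 0.0694), and mmu-miR-143-3p of smooth muscle (-1.18 ± 0.41 with HQHF, adjusted p = 0.0649). Between HFD plus HQHF and control 1.23% of 406 miRNAs were called in either direction, and 0 of the 11; at an unadjusted p under 0.05 there were 119 of all.

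**Figure D5:**
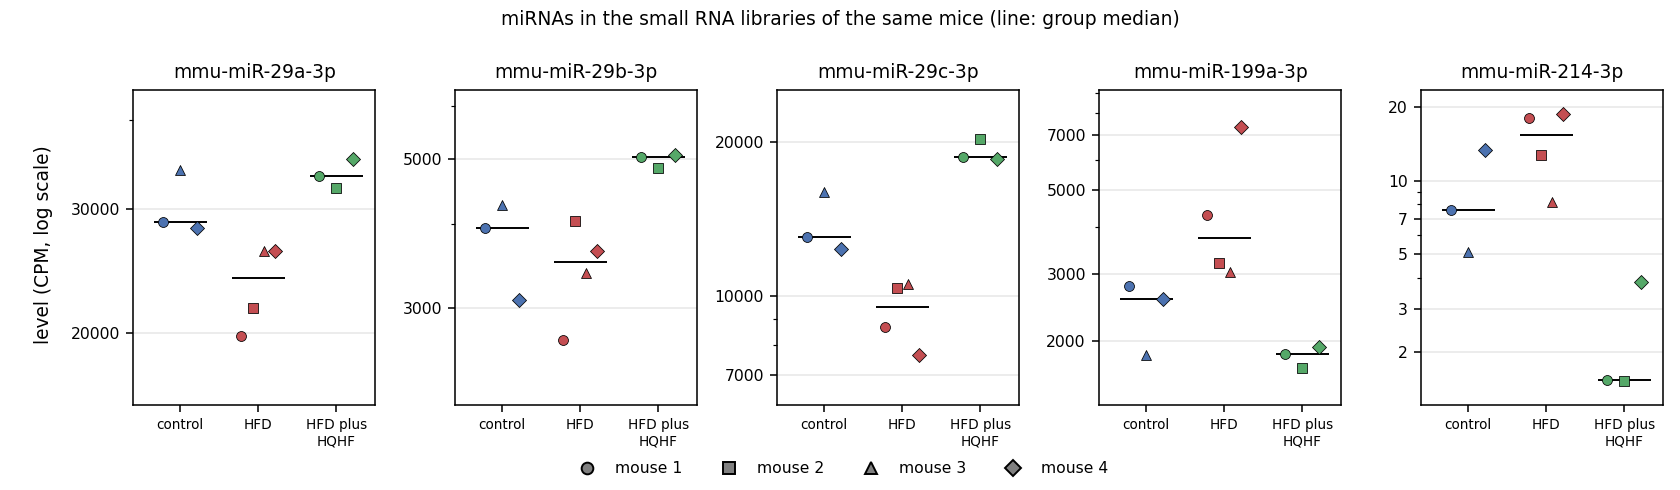
Level in CPM (log axis) of 5 miRNAs in the small RNA libraries of the same 10 mice, with marker shapes for the mouse number and a line at the group median. With TMM scaling mmu-miR-29b-3p and mmu-miR-29c-3p are highest in HFD plus HQHF (18562 to 20243 CPM for mmu-miR-29c-3p), and mmu-miR-214-3p is lowest there (1.51 to 3.86 CPM). For mmu-miR-29a-3p control 3 (34021 CPM) lies above HFD plus HQHF 1 (33350 CPM) and HFD plus HQHF 2 (32095 CPM). With library totals mmu-miR-29a-3p and mmu-miR-29b-3p are no longer higher in HFD plus HQHF than in HFD.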

How the data were processed

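Liver RNA of 12 mice was extracted with TRIzol and sequenced as small RNA and as long RNA, the latter with a stranded total RNA kit after removal of ribosomal RNA, per the labels' protocols. The authors deposited unnormalized counts, as whole numbers, for genes and for mature miRNAs. The submitters' processing notes name HISAT2, RSEM and the build GRCm39. The step that counted reads, and whether it used strand, are not stated in what was used here, so overlapping genes may share reads.

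The tests used edgeR 4.0.16 under R 4.3.3 (filterByExpr by group, TMM, estimateDisp, robust glmQLFit, glmQLFTest), in 1 model of the 3 group means per assay, over 13832 genes and 406 miRNAs of 10 libraries. The SE is the log2 fold change divided by the square root of F. Total counts of the long RNA libraries were 36198931 to 46454404, which limits the precision of genes at low levels. The p-values measure the spread between these mice, of 3 or 4 per group. DESeq2 1.42.0, other scalings and filters, other sets of libraries and a replicate block were alternatives. Ratios to Lrat (0.5 counts added) were tested by exact permutation, adjusted over the 9 ratios. On simulated counts for 13608 genes with 200 changed in HFD against control, the fit called 187 of them, at a median log2 size of 2.005, and 7 unchanged genes. The changed genes were drawn from those of higher level, all by the same fold, equally up and down, with the spread of the same fit. In the real comparison 3625 of 13832 genes were called, and Lox and Tgfb2 were at low levels. The simulation therefore does not cover such low levels or so broad a change between groups.

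The 10 members, the 20 gene lists, the miRNA list and the use of 10 libraries were chosen with earlier results of these data known. Named genes are all members and, of each list, up to 3 called genes with the smallest p per comparison or, where none was called, the gene with the smallest p, and always Ccn2, Col1a1, Tagln, Pdgfb and Tgfbr2. Some genes of the lists are not reported here and are not in the counts of their lists. Myh11, Actg2, Eln and Ltbp2 are given by library because of their order in HFD, chosen after their values were seen. Clec4f and Timd4 are given for their direction, also chosen after their values were seen. Sequences are RefSeq's (GRCm38.p6), a build other than that of the counts. Plots used matplotlib 3.10.9 (Python 3.11.15).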

Additional observations from a re-analysis of the deposited data

Results flagged for a closer look

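Among the 4 HFD libraries, 81 members, list genes and listed miRNAs were checked for 1 library far from the others. The rule was a gap to the nearest, as a share of the whole range, above Dixon's critical value at 95%. Of these 9 had one, where chance gives about 1 group in 20 for normally spread values. CPM need not be normally spread, and the genes are related and partly chosen by their HFD differences. No excess over chance can therefore be read from this count. Of the members, Acta2 was at 40.3 CPM in HFD 1 with the next at 13.0 CPM, Cygb at 71.8 CPM in HFD 4 with the next at 25.0 CPM, and Pdgfra at 111 CPM in HFD 4 with the next at 38.9 CPM. HFD 4 was also apart for Ccn2 (48.1 CPM, next 11.2 CPM), Tgfb3 (12.3 CPM, next 3.78 CPM), Tgfbr2 (73.5 CPM, next 49.2 CPM) and mmu-miR-199a-5p (2617 CPM, next 889.9 CPM). HFD 3 was apart for Cfd (57.5 CPM, next 0.0919 CPM), a gene of fat cells, and HFD 2 was low for Timp1 (0.827 CPM, next 3.03 CPM).

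The libraries left out of the comparisons held most of the 10 genes above the highest of the 3 controls kept, on the scale of all 12 libraries. In control 2 this was so for 7 genes: Lox at 62.8 CPM (highest control 0.408 CPM), Pdgfra at 128.4 CPM (15.9 CPM), Pdgfrb at 46.6 CPM (15.4 CPM), Cygb at 46.3 CPM (7.91 CPM), Acta2 at 39.3 CPM (12.2 CPM), Des at 10.3 CPM (4.89 CPM) and Tgfb2 at 3.82 CPM (0.699 CPM). In HFD plus HQHF 3 it was so for 8: Pdgfrb at 57.0 CPM, Des at 48.6 CPM, Pdgfra at 40.7 CPM, Acta2 at 32.0 CPM, Cygb at 23.7 CPM, Lox at 23.3 CPM, Tgfb1 at 14.3 CPM (highest control 12.1 CPM) and Tgfb2 at 1.41 CPM. Lrat and Reln were the exceptions in both: Lrat had 7 reads in control 2 and 1 read in HFD plus HQHF 3, and Reln 263 and 233 reads (5.12 and 4.31 CPM, highest control 204.7 CPM).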

How the results depend on the processing

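All 10 members had the same direction under TMM, RLE and library-total scaling in both comparisons with HFD. With all 12 libraries 0 members were called in each comparison, and there Lox turned to -2.16 in HFD against control and to 0.77 with HQHF, and Des to 0.73 with HQHF. With HQHF against the diet alone, 4 members were called with no filter and 3 with only the libraries of those 2 groups. With 1 library left out, 4 to 8 members were called in HFD against control, 1 to 8 in HFD plus HQHF against HFD and 0 in HFD plus HQHF against control. With library totals 11 contractile genes rose and 11 fell, against 7 and 7 with TMM, and 4 lysyl oxidase relatives fell with HQHF, against 2. Of members not called, 17 values in other settings changed sign. At an adjusted p under 0.1, 8, 8 and 0 members were called. With the replicate block 6, 7 and 0 members were called. Same-numbered libraries had deviations from their group means that correlated at -0.05 to 0.12. These values show no strong shared pattern but cannot exclude that the numbers mark pairs of mice. Each group keeps 3 or 4 libraries, which limits every count.

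Of the 11 miRNAs, 1 was called in HFD against control with TMM, and it was lower. Those called were 2 with RLE (0 higher, 2 lower) and 3 with library totals (3 higher, 0 lower). They were 5 with DESeq2 (2 higher, 3 lower), 0 with only those groups and 0 with 12 libraries. They were 4 (3 higher, 1 lower) without control 1 and HFD 3, and 0 to 4 with 1 library left out. The 1 called without control 1 was higher, and the 4 without HFD 3 were 2 higher and 2 lower. The direction of these calls was therefore not the same in all settings. With HQHF against the diet alone library totals gave 1 higher and 4 lower, against 3 and 2 with TMM. Those called there were 2 with no filter, 2 with only those groups, 0 with 12 libraries and 1 to 6 with 1 left out. Between HFD plus HQHF and control they were 2 with DESeq2, 3 with only those groups and 0 to 1 with 1 left out. With library totals mmu-miR-29c-3p turned to 0.096 in HFD, and mmu-miR-29a-3p and mmu-miR-29b-3p to -0.099 and -0.055 with HQHF. Apart from fewer samples, and from the scaling itself, the cause of these changes was not tested. All settings of the miRNA fits other than library totals and 12 libraries, the fit without control 1 and HFD 3, the ratios on 12 or 9 libraries and the list counts without 1 library were added after the data were seen. For the ratios no setting gave a call; 24 values of ratios to Lrat changed sign, and 16 of the ratios to Reln or Pdgfrb in place of Lrat differed in sign from it.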
